A study of Mus musculus with 4 samples.

Results

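Long intergenic noncoding RNA (lincRNA) loci were examined in C2C12 cells, muscle precursor cells of mouse that are kept as an established line and can fuse into myotubes. The loci were taken from the array annotation. A probe was included when its name began with lincRNA or when it was named by a chromosomal position in place of a gene symbol, which gave 16194 of the 55681 non-control probes and 4610 loci. The array description calls all 16194 of them lincRNA probes. A further 57 probes carry that description under another name, such as TUG1 and lincP21, and were not included.

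RNA was taken 48 hours after C2C12 myoblasts had been transfected either with siRNA that targets Fxr1, here siFxr1, or with the control, here siControl. Fxr1 encodes FXR1P, an RNA-binding protein abundant in muscle. Each condition was measured in 2 experiments that the series calls independent, with 1 array per condition and experiment and both arrays of an experiment on the same slide, so experiment and slide cannot be told apart. The cells are 1 line, and the knockdown is transient and targets an exon common to all Fxr1 mRNAs. The label of siFxr1 in experiment 1 gives an RNA integrity number of 8, and those of the remaining arrays give 9. Both Fxr1 probes matched the labels, with log2 differences between siFxr1 and siControl of -3.84 and -3.69 in experiment 1 and of -3.38 and -2.93 in experiment 2.

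LincRNAs are RNAs transcribed outside protein-coding genes, mostly by RNA polymerase II, and many are capped, spliced and polyadenylated like mRNAs. As a class they are known to be less abundant and more restricted to particular cell types than mRNAs. Some act in the nucleus on nearby or distant genes, some act in the cytoplasm, and for most loci on an array of this kind no function is known. Because RNA was measured in bulk, fewer cells expressing a transcript and less of it per cell cannot be told apart.

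A locus is named here by its mm9 coordinates and the strand of its transcript, as in the array annotation. There were 2321 loci on the forward and 2289 on the reverse strand in 3543 regions. A locus had between 1 and 10 probes (median 3) of 60 bases each, and its median length was 10674 bases, with quartiles of 1744 and 25866. For 3 loci with 13 probes the name gives no strand, and 118 probes have no mapped position. Not every locus is intergenic in the array's own annotation: 904 loci (19.6%) hold a gene probe on the same strand and 642 (13.9%) one on the other strand.

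The probes of the loci with the largest differences and of a very bright locus are printed first, since a signal on this platform is the signal of 60 bases and not of a whole transcript. They are written 5′ to 3′ as spotted on the array, in the sense of the transcript. Capitals mark ATTTA, the core of AU-rich elements that RNA-binding proteins recognise, and AATAAA, the usual polyadenylation signal. These are letters found by search and not sites shown to act.
Probes of chr17:26911397-26917047, forward strand, lower in siFxr1, at chr17:26913290-26913349 and chr17:26913509-26913568:
A_30_P01026815: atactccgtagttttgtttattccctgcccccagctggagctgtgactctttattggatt
A_30_P01027115: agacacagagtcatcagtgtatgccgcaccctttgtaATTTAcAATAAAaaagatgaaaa
Probes of chr2:153163620-153170845, reverse strand, lower in siFxr1, at chr2:153167459-153167518 and chr2:153167695-153167754:
A_30_P01017922: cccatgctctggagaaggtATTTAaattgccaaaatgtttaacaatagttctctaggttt
A_30_P01027389: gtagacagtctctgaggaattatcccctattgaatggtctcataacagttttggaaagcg
Probes higher in siFxr1, of chr8:27925064-27934895 (probe at chr8:27925067-27925126) and chr1:52706748-52712402 (probe at chr1:52706770-52706829), both on the reverse strand:
A_30_P01033256: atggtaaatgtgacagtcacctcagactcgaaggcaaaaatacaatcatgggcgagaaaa
A_30_P01026968: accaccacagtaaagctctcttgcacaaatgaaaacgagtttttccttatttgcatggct
Probes that differed between the experiments, of chr13:22110479-22116629 (reverse; probe at chr13:22114226-22114285), chr11:3538125-3554450 (forward; probe at chr11:3548219-3548278), chrX:11693432-11693908 (reverse; probe at chrX:11693554-11693613) and chr13:28947034-28949166 (reverse; probe at chr13:28947106-28947165):
A_30_P01022120: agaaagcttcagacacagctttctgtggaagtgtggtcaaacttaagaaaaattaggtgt
A_30_P01021787: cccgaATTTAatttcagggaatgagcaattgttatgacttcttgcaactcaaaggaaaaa
A_30_P01023452: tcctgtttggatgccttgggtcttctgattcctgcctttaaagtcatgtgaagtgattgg
A_30_P01022276: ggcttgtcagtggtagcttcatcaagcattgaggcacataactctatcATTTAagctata
Probes of the bright locus chr17:17481706-17482457, reverse strand, at chr17:17482258-17482317 and chr17:17482318-17482377:
A_30_P01025369: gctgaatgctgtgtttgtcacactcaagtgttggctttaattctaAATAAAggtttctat
A_30_P01022075: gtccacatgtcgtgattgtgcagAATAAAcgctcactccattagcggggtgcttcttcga

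LincRNA probes were detected less often than other probes on each of the 4 arrays. A probe was called detected when Agilent's software marked it as well above background on at least 0.5 of its spots. In experiment 1, 4143 lincRNA probes (25.6%) were detected in siControl and 3997 (24.7%) in siFxr1. In experiment 2 the numbers were 5256 (32.5%) and 5834 (36.0%). Both arrays of experiment 2 were thus above both arrays of experiment 1, while siFxr1 was below siControl in one experiment and above it in the other. Of the other 39487 probes 54.2% (siControl) and 53.9% (siFxr1) were detected in experiment 1, and 56.7% and 59.9% in experiment 2. With 1 array per condition and experiment these shares were not tested.

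**Figure D1:**
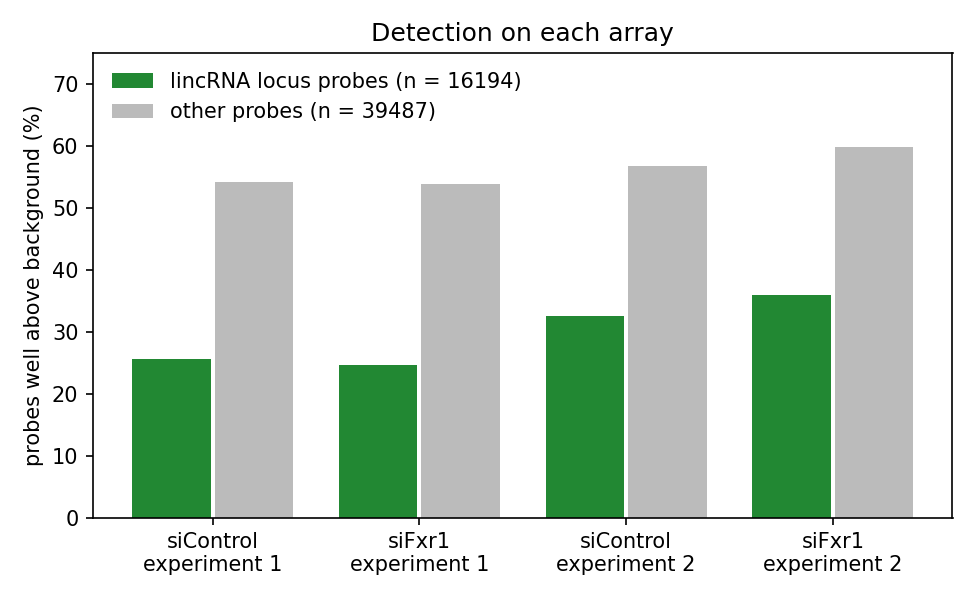
The share of probes well above background (y axis, in percent) is plotted for each of the 4 arrays, with green bars for the 16194 lincRNA locus probes and grey bars for the 39487 other probes; there are no error bars because each bar is 1 array. The green bars lie between 24.7% and 36.0%, below every grey bar, and are higher in experiment 2.

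Of the lincRNA probes, 9590 (59.2%) were detected on no array, 1314 on 1 array, 1317 on 2, 610 on 3 and 3363 (20.8%) on all 4. Among other probes, 51.0% were detected on all 4. The 3363 probes are referred to below as detected. They lay in 1826 loci (39.6% of the loci), and in 480 loci every probe was detected. The median normalized log2 signal of the probes detected on an array was between 6.41 and 7.34 for lincRNA probes and between 10.05 and 10.57 for the others, though probes differ in how well they bind.

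Probes seen in 1 experiment only were mostly seen in experiment 2. Both arrays of experiment 2 and neither of experiment 1 detected 1069 lincRNA probes, and the reverse held for 98. Among the other 39487 probes the counts were 1065 and 102, and over all 55681 probes 2134 and 200. By condition the differences were smaller, with 79 lincRNA probes on both siFxr1 arrays only and 28 on both siControl arrays only. Among the other probes these counts were 238 and 54, and over all probes 317 and 82. More probes on the siFxr1 arrays only was thus seen over all probes as well.

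Detection differed with the base composition of the probe. Of the lincRNA probes with at most 35% GC 15.7% were detected, of those with 35 to 45% 16.9%, of those with 45 to 55% 30.2% and of those above 55% 51.2%. Among the other probes the same 4 classes were detected at 50.5%, 49.3%, 56.1% and 65.3%. Across detected lincRNA probes GC content correlated with the difference between siFxr1 and siControl at a Spearman rho of 0.256 in experiment 1, where the siFxr1 array has the lower RNA integrity number, and of -0.0579 in experiment 2. Among the other detected probes rho was 0.0655 in experiment 1 and -0.155 in experiment 2. The median difference of lincRNA probes in experiment 1 went from -0.0766 in the lowest GC class to 0.345 in the highest. For the other probes it went from -0.00923 to 0.301. The part of base composition and of RNA integrity in the differences was not tested.

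AATAAA stood in 3.92% of all lincRNA probes, and its reverse complement TTTATT in 3.03%. Among detected lincRNA probes the shares were 4.76% and 2.94%, and among those on no array 3.71% and 3.1%. In the other probes they were 12.6% and 4.03%. ATTTA was in 6.97% of the lincRNA probes and TAAAT, its reverse complement, in 7.54%, against 8.02% and 10.5% of the other probes. Neither search allowed a mismatch, and a TAAAT match can overlap an AATAAA match.

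The array carries both strands of 1067 regions, which allows the strand of a signal to be read. Both strands held a detected probe in 276 of these regions, 1 strand in 460 and neither in 331. Where both were detected, the brightest probes of the 2 strands differed by a median of 2.053 on the log2 scale, which includes the difference between probes in binding. Of the 2476 regions with a single strand on the array, 814 were detected.

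The brightest lincRNA probe was that of chr11:22681800-22707775 (reverse), with log2 signals of 18.23 and 18.10 in siFxr1 and of 18.09 on both siControl arrays. It shares at least 25 consecutive bases with 3 gene probes, and a Gm12058 probe in the locus read between 18.12 and 18.23. The locus chr17:17481706-17482457, whose probes are printed above, had 3 of 3 probes detected. Its brightest probe read 18.04 and 17.76 in siFxr1 and 18.17 and 17.61 in siControl, and its difference between experiments was larger than that between conditions. The other 3 of the 5 brightest loci were chr7:108209996-108216032 (reverse, at most 17.85), chr14:78924115-78938125 (forward, at most 17.63) and chr17:48068261-48087905 (forward, at most 17.58). In the chromosome 14 locus 2 of 7 probes were detected, and the signal of the second was at most 6.72. Runs of 25 or more bases shared with a gene probe were found in 229 lincRNA probes (1.41%) and in 121 (3.60%) of the detected ones, and for these the signal may come from either transcript.

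For comparison, 36 long noncoding RNAs known by a symbol were looked up, among them Malat1, H19 and Neat1. A probe was on the array for 25 of them and 17 (68%) were detected. None was at least 2-fold higher in siFxr1 in both experiments and 1 was at least 2-fold lower.

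The main comparison asked which lincRNA loci differ after knockdown of Fxr1. Limma was fitted to all 55681 probes with condition as the only term, and 0 of the 16194 lincRNA probes passed a Benjamini-Hochberg adjusted p of 0.05, as did 0 of all probes (background 0%, lowest adjusted p = 0.950). At an unadjusted p under 0.05 there were 551 lincRNA probes among 2764 of all. An exact two-sided permutation test of 2 arrays against 2 cannot go below p = 0.333. The samples are paired by experiment in the labels. In limma with experiment as a block on all probes 0 lincRNA probes passed as well (lowest adjusted p = 0.535). At an unadjusted p under 0.05 that fit had 1136 lincRNA probes among 4927 of all.

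With experiment as a block and the fit restricted to the 23500 probes detected on all 4 arrays, 44 lincRNA probes in 27 loci passed. They are 1.31% of the detected lincRNA probes, below the background of 2.06% of all detected probes. Of these, 16 probes in 14 loci were higher in siFxr1 (background 0.996% in that direction, 0.476% of the lincRNA probes), by 1.20 to 2.19 on the log2 scale (median 1.31). The other 28 probes in 13 loci were lower (background 1.06%, 0.833% of the lincRNA probes), by -2.04 to -1.17 (median -1.41). These calls depend on the restriction to detected probes and on the background correction. With normexp correction, a setting chosen after the data were seen, 16 of the 44 were called. They included all 10 called probes of the chromosome 17 locus described next and none of the chromosome 2 locus after it. The adjusted p-values of single loci below are from this blocked fit over detected probes, and none of these loci passed in the fit with condition only.

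**Figure D2:**
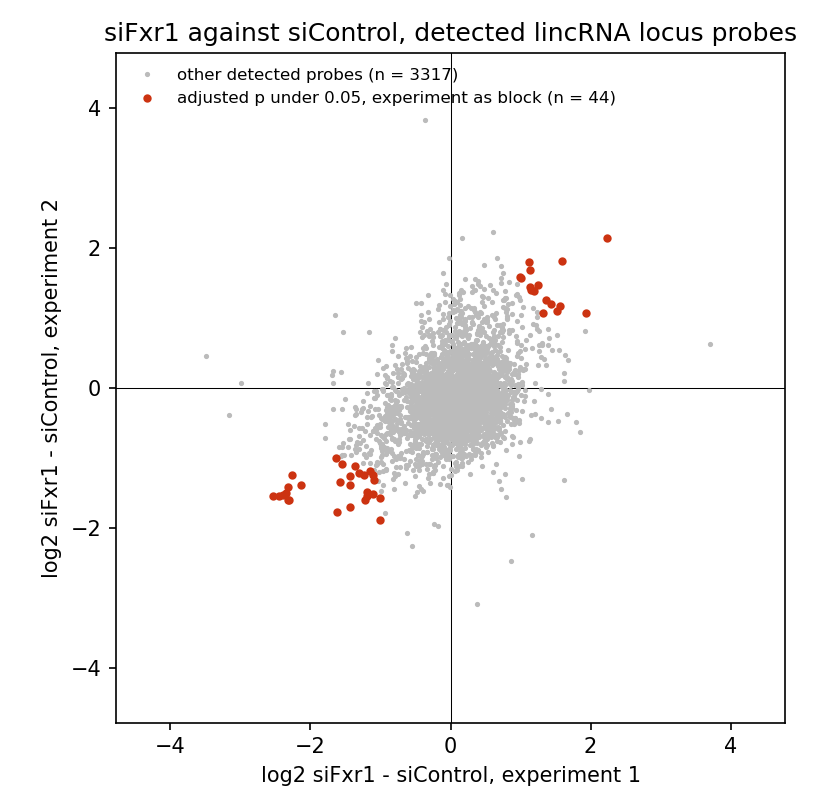
Each point is a lincRNA probe detected on all 4 arrays, with its log2 difference between siFxr1 and siControl in experiment 1 on the x axis and in experiment 2 on the y axis. Red points mark the 44 probes with an adjusted p under 0.05 in the limma fit with experiment as a block, which lie in the upper right and lower left, and grey points the others.

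By size alone, 20 lincRNA probes in 17 loci were at least 2-fold higher in siFxr1 in both experiments, which is 0.595% of the 3361 detected probes with a value on all arrays (background 1.12%). At least 2-fold lower in both were 36 probes in 17 loci, or 1.07% (background 1.30%). Among the other detected probes the shares were 1.21% and 1.34%. The shares for lincRNA probes were thus below those of the rest in both directions, without a test. The differences had the same sign in both experiments for 55.2% of the detected lincRNA probes and 65.2% of the others. Their correlation across probes was 0.339 and 0.508, which is a description since probes share arrays. The median difference of detected lincRNA probes was 0.0976 in experiment 1 and -0.153 in experiment 2, against 0.0376 and -0.0248 over all detected probes.

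Probes of a locus mostly differed in the same direction. In the 420 loci with 3 or more detected probes, every probe had the same sign of difference in 276 (65.7%). The median SD of the difference within a locus was 0.14 on the log2 scale, and the SD of the locus medians was 0.421. Probes of a locus carry the same locus name and some overlap, and they were not counted as replicates.

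The locus with the most called probes was chr17:26911397-26917047 on the forward strand. All of its 10 probes were detected, and all 10 were lower in siFxr1 with an adjusted p under 0.05 in the blocked fit. Probe A_30_P01024087 read 8.59 (siFxr1) against 10.92 (siControl) in experiment 1 and 9.46 against 11.06 in experiment 2. Both siFxr1 values were below both siControl values, and the experiments differed by less than the conditions. The siFxr1 mean was 9.03 ± 0.609 (SD, n = 2), against 10.99 ± 0.0968 (SD, n = 2) for siControl. The log2 difference was -1.96 (SE 0.264, limma with experiment as a block, adjusted p = 0.0244). Over the 10 probes the difference was between -2.53 and -1.43 in experiment 1 and between -1.60 and -1.25 in experiment 2. At each of the 10 probes both siFxr1 arrays lay below both siControl arrays.

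These 10 probes start between 1546 and 2112 bases into the locus, some of them overlapping, and the last of them, A_30_P01027115, holds ATTTA and AATAAA as printed above. On the other strand of the same region, 0 of 10 probes were detected on all 4 arrays and 5 were detected on none. Their differences ran from -2.81 to 0.233. One of them, A_30_P01023100, was detected on both siControl arrays (6.58 and 4.97) and on neither siFxr1 array (3.38 and 2.55), at least 1.99-fold lower in siFxr1. The nearest gene detected on all arrays was Bnip1, which encodes a SNARE protein of the endoplasmic reticulum and lies 11993 bases away on the same strand. Its probe differed by 0.138 and -0.417 in the 2 experiments. A nearer transcript, A930001N09Rik, differed by -1.86 and -0.813 but was detected on 3 arrays only.

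The locus with the next most called probes was chr2:153163620-153170845 on the reverse strand. Of its 9 probes 8 were detected and 7 were called lower in siFxr1. Probe A_30_P01027389 read 5.97 (siFxr1) against 7.59 (siControl) in experiment 1 and 5.88 against 7.66 in experiment 2. The conditions did not overlap, and arrays of a condition lay within 0.1 of each other. The means were 5.93 ± 0.0587 (SD, n = 2) and 7.63 ± 0.0446 (SD, n = 2), with a log2 difference of -1.70 (SE 0.231, limma with experiment as a block, adjusted p = 0.0244). The detected probe that was not called, A_30_P01023507, read 7.76 and 6.52 in siFxr1 against 8.24 and 8.00 in siControl, so siFxr1 of experiment 1 was closest to the controls there. Of 10 probes on the other strand 3 were detected, with differences between -1.25 and -0.116 over all 10.

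**Figure D3:**
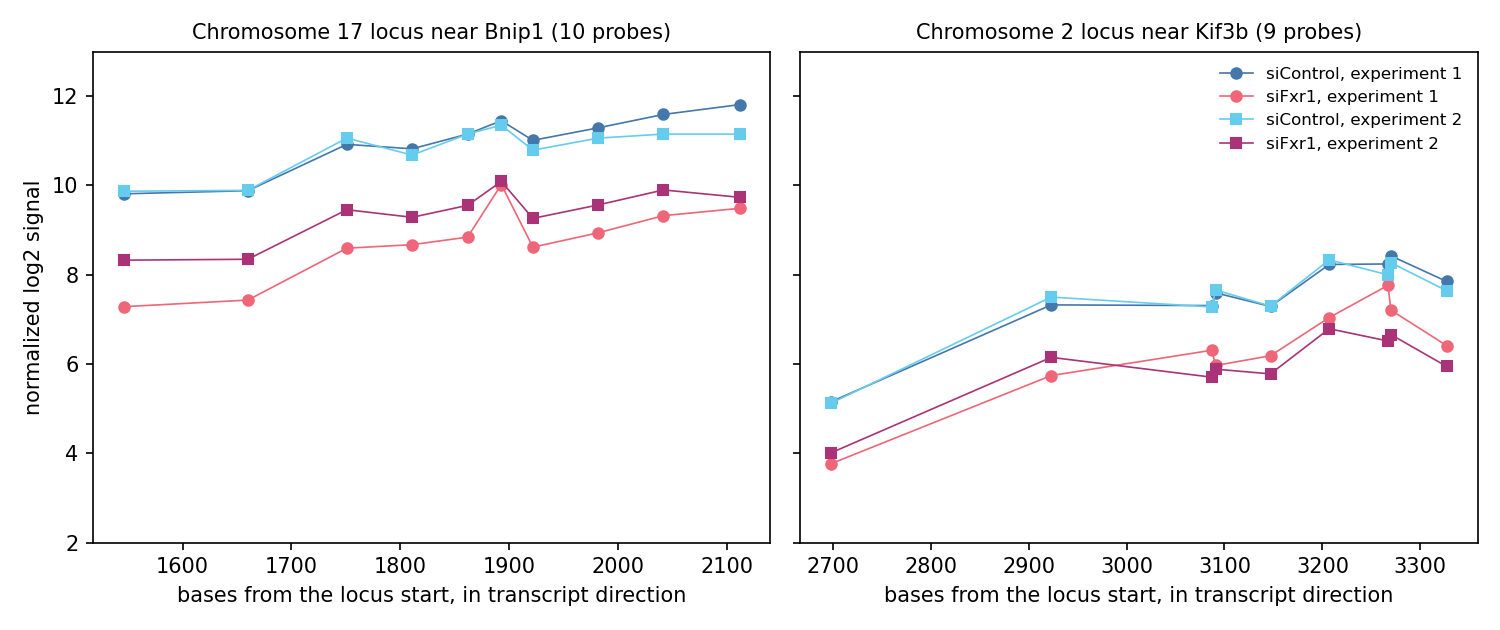
The normalized log2 signal (y axis) of each probe is plotted against its distance in bases from the locus start in transcript direction (x axis), for the chromosome 17 locus near Bnip1 and the chromosome 2 locus near Kif3b. Each line is 1 of the 4 arrays. The siFxr1 lines (red and purple) lie below the siControl lines (blue) throughout, at loci chosen as among the lowest in siFxr1.

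Genes around the chromosome 2 locus were read from the same arrays. The nearest detected gene was Kif3b, a kinesin motor subunit, 6507 bases away on the other strand, with differences of -0.328 and -0.574. Asxl1, a chromatin regulator that works with Polycomb proteins, lies 58839 bases away on the other strand. Its probe read 11.83 and 11.73 in siFxr1 and 12.92 and 13.14 in siControl, a log2 difference of -1.25 that passed in the blocked fit (limma adjusted p = 0.0456). The nearer 2500004C02Rik, 769 bases away on the same strand, differed by -1.13 and -0.774 and was detected on 2 arrays.

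The remaining lower loci had 1 called probe each. At chr5:22887983-22939658 (reverse), all 3 probes were detected and at least 2-fold lower in both experiments. Probes A_30_P01029305 and A_30_P01027135 among them overlap and share a repeated sequence. Probe A_30_P01019824 read 7.08 and 8.35 in siFxr1 and 8.52 and 9.73 in siControl, and the conditions did not overlap although experiment 2 was brighter in both. Its log2 difference was -1.41 (limma with experiment as a block, adjusted p = 0.0364). Probes of 5031425E22Rik, ENSMUST00000101522 and BC050254, in the locus on the same strand, were detected on all arrays. They differed by 0.282 and -0.792, by 0.283 and -0.00186, and by 0.0417 and 0.323. At chr8:59994102-59994797 (forward), 1114 bases from Hmgb2, which encodes a chromatin protein of proliferating cells, the called probe read 7.57 and 6.95 in siFxr1 and 8.87 and 8.17 in siControl. The Hmgb2 probe differed by -0.0671 and -0.596. At chr14:65431652-65437902 (reverse) 5 of 10 probes were detected and 1 was called, at -1.24, while the brightest, A_30_P01022518, differed by 0.536 and -0.446. Probes A_30_P01027754 and A_30_P01026410 differed by -1.16 and -1.24 and were not called (limma with experiment as a block, adjusted p = 0.0515 and 0.0526). A_30_P01024259 differed by 0.0701 and -0.232 in the 2 experiments. The detected probes of that locus thus did not all fall.

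Others of the lower loci lay in or near known genes, and those named next were chosen after their values were seen. A probe of chr8:85609155-85615170 (forward) fell with a difference of -1.17 (limma with experiment as a block, adjusted p = 0.0492) and the Rnf150 probe in the same locus and strand differed by -1.05. A probe of chr11:55315017-55322092 (reverse), 1007 bases from G3bp1 on the other strand, differed by -1.21 (limma adjusted p = 0.0484, same fit). G3bp1 encodes a stress granule protein and its own probe differed by -0.264. A probe of chr6:145647711-145756861 (forward), 9076 bases from Rassf8, differed by -1.45 and Rassf8 by 0.688.

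Among the higher loci, chr8:27925064-27934895 (reverse) had the largest difference. Its probe A_30_P01033256 read 8.13 (siFxr1) against 5.90 (siControl) in experiment 1 and 8.69 against 6.55 in experiment 2. The conditions did not overlap, and in each of them experiment 2 was slightly brighter. The means were 8.41 ± 0.391 (SD, n = 2) and 6.22 ± 0.457 (SD, n = 2), a log2 difference of 2.19 (SE 0.230, limma with experiment as a block, adjusted p = 0.0144). The other probe of the locus differed by 0.789 and 1.08 and was not called (limma adjusted p = 0.0883). No detected gene probe lies within 100 kb.

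At chr1:52706748-52712402 (reverse) probe A_30_P01026968 read 8.00 and 8.00 in siFxr1 and 6.41 and 6.19 in siControl. The arrays of a condition lay closer to each other than to the other condition, and the log2 difference was 1.70 (SE 0.233, limma with experiment as a block, adjusted p = 0.0247). The other 4 probes of the locus were detected on no array. The Tmem194b probe inside the locus, on the other strand, differed by 0.189 and -0.328.

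At chr2:128142035-128142481 (reverse) all 3 probes were detected and at least 2-fold higher in both experiments, and 1 was called. That probe, A_30_P01026716, read 11.51 and 9.95 in siFxr1 and 10.14 and 8.69 in siControl. Experiment 1 was brighter than experiment 2 in both conditions, and siFxr1 was above siControl within each. Gm14005, a noncoding transcript on the same strand in this locus, read 11.52 and 9.99 against 10.27 and 8.78, and its log2 difference of 1.23 passed in the same fit (limma adjusted p = 0.0451). The called lincRNA probe shares at least 25 consecutive bases with 1 gene probe, so the readings at this locus may not be independent.

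Probes around Pvt1 on chromosome 15, looked at after their values were seen, were among those higher in siFxr1. Pvt1 is a long noncoding RNA gene that lies next to the oncogene Myc. A probe of chr15:61984389-62102500 (forward) read 9.93 and 9.95 in siFxr1 and 8.92 and 8.39 in siControl. A probe of chr15:62007025-62090191 (forward) read 7.11 and 7.54 against 5.59 and 6.44. Both were called in the blocked fit, with log2 differences of 1.29 and 1.31 (limma adjusted p = 0.0486 and 0.0445). The Pvt1 probes themselves differed by 1.09 and 0.625 and were not called (limma adjusted p = 0.0754 and 0.263). The 2 loci overlap each other and Pvt1 on the same strand, so they are not independent. Nearer to Myc, probe A_30_P01026168 of chr15:61870759-61938796 was detected on both siFxr1 arrays (6.55 and 6.55) and on no siControl array. So was A_30_P01023245 of this locus, at 5.66 and 4.80 in siFxr1 and 4.72 and 4.66 in siControl. A_30_P01031088, also of this locus, was detected on 3 arrays, which include a siControl array. It read 6.61 and 7.08 in siFxr1 and 4.80 and 5.19 in siControl. LOC100045149, 372 bases from this locus, read 10.33 and 9.23 in siFxr1 and 9.05 and 7.63 in siControl (limma with experiment as a block, adjusted p = 0.0369). Myc differed by 0.397 and 0.477 (limma adjusted p = 0.353).

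Of the other higher loci, also chosen after their values were seen, 3 are given. At chr14:78214602-78226287 (reverse) the called probe read 7.94 and 7.08 in siFxr1 and 6.81 and 5.29 in siControl. Dnajc15, a mitochondrial co-chaperone gene on the same strand there, differed by 1.12 (limma with experiment as a block, adjusted p = 0.0730). At chr15:8463685-8494960 (reverse) 2 probes were called, at 1.36 and 1.5, and at chr4:149445201-149445902 (forward) 2 probes at 1.29 and 1.41.

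Of the 27 called loci, 11 hold a detected gene on the same strand and 2 hold one on the other strand. For 7 the nearest detected gene lies outside on the same strand, for 4 outside on the other strand, and 3 have none within 100 kb. Over the 1826 loci with a detected probe the same classes were 241 (13.2%), 138 (7.56%), 662 (36.3%), 537 (29.4%) and 248 (13.6%). The correlation of the locus and gene differences between siFxr1 and siControl was 0.499 across the 241 loci with a gene on the same strand inside them. It was 0.332 across the 138 with one on the other strand, 0.158 across those with a gene outside on the same strand and 0.174 with a gene outside on the other strand. All points share the 4 arrays, and in the first class probe and gene may read a single transcript.

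The motifs were also counted among the probes that differed by size. ATTTA was in 0 of the 20 probes at least 2-fold higher in siFxr1 and in 2 of the 36 lower ones, against 5.92% of detected lincRNA probes. AATAAA was in 0 and 1 of them. These searches cover 60 bases per probe and not the transcript.

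Cdkn1a, which encodes the cell cycle inhibitor p21, is a transcript at the centre of the study, and lincRNA-p21 is a known noncoding RNA transcribed next to it. The 5 lincP21 probes were detected on no array, with signals between 2.80 and 4.53. In the array's loci around Cdkn1a, chr17:29183003-29217681 had 0 of 5 forward and 2 of 5 reverse probes detected, and chr17:29192453-29216073 (reverse) 1 of 2. The detected probes differed by 0.0949, -0.0532 and -0.249 between siFxr1 and siControl. A_30_P01022991 of the first locus read 6.39 and 6.90 in siFxr1 and 6.14 and 6.96 in siControl, so the conditions overlapped. Of the Cdkn1a probes, A_55_P1986282 read 9.19 and 10.62 in siFxr1 and 6.33 and 6.73 in siControl (limma with experiment as a block, adjusted p = 0.00814). The other 2 Cdkn1a probes differed by 0.899 and 0.638 and were not called. None of the detected lincRNA probes around it was called (lowest adjusted p = 0.623, same limma fit).

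Of the 15 genes whose neighbourhoods were searched, 5 had an array locus within 100 kb. The locus chr3:34003359-34537330 (forward), 35228 bases from Fxr1, had 1 of 3 probes detected, at 7.06 and 6.04 in siFxr1 and 6.75 and 5.04 in siControl. The siFxr1 and siControl values overlapped between experiments. No probe was detected in the 3 loci near Cdk15, the 3 near Dusp6 and the 1 near Lbh. Around the Hox clusters, which are known for antisense lincRNAs, 8 of 59 probes (13.6%) in 14 loci were detected and 0 were at least 2-fold higher or lower in siFxr1 in both experiments. The brightest, of chr11:96111499-96126224 (reverse), read 13.50 and 14.42 in siFxr1 and 13.43 and 13.54 in siControl.

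Of the lincRNA probes that share at least 30 bases with a microRNA hairpin, 3 were detected, and the one for let-7c is shown here. The locus chr15:85412264-85549139 (forward) spans Mirlet7c-2, and its probe A_30_P01031395 (chr15:85537022-85537081) shares 49 bases with the let-7c-2 hairpin of RefSeq, shown in capitals. The mature let-7c, a small RNA that represses mRNAs through its seed, is printed below it with the seed (bases 2 to 8) in capitals; both miRNA sequences are from RefSeq (GRCm38.p6).
A_30_P01031395: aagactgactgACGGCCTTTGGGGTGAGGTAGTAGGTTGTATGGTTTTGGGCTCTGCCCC
mmu-let-7c-5p: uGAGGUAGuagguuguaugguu
The probe read 8.57 and 10.56 in siFxr1 and 7.63 and 9.24 in siControl. It was higher in siFxr1 within each experiment and higher in experiment 2, so the conditions overlapped across experiments. The log2 difference of 1.13 missed the threshold (limma with experiment as a block, adjusted p = 0.0594). The other 5 detected probes of the locus had mean differences of -0.165 to 0.404. Except at A_30_P01022732 (0.567 and 0.241), their differences were positive in experiment 1 (0.0697 to 0.518) and negative in experiment 2 (-0.795 to -0.4). Another probe of this locus, A_30_P01033484, matches the same hairpin on the same strand and was detected on 2 arrays. It read 4.76 and 6.15 in siFxr1 against 4.53 and 7.71 in siControl, with differences of 0.235 and -1.56. A probe for long RNA reads the precursor and not the mature miRNA. The detected probe that shares 58 bases with the Mir8110 hairpin, on the same strand, differed by 0.667 and 0.462 between siFxr1 and siControl, and the one on the strand opposite to Mir6516 by 0.0558 and 0.0446. In all, 16 lincRNA probes share such a run. RefSeq promoter windows, which run from just upstream to just downstream of a gene's start, were matched over at least 30 bases by 259 lincRNA probes, of which 89 (34.4%) were detected. On the strand opposite to the gene only, 56 of 145 were detected, and on the same strand only, 29 of 105.

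Some probes were seen in 1 condition only and have a bound in place of a fold change. On both siFxr1 arrays only were 79 of the 16194 lincRNA probes, against 317 of all 55681 probes. On both siControl arrays only were 28, against 82 of all. The bound divides the brighter condition's mean by that of the dimmer condition, where each dimmer array enters with its own reading or with its detection floor, the dimmest reading marked well above background, whichever was larger. For the 79 probes on both siFxr1 arrays only, in 75 loci, the median bound over the 78 that have one was at least 1.55-fold and the highest at least 4.59-fold, at chr13:70815593-70820844 (reverse). That probe read 7.29 and 6.48 in siFxr1 and 4.72 and 4.42 in siControl. Another probe of that locus was detected on 3 arrays, at 7.92 and 6.70 in siFxr1 and at 5.68 in siControl of experiment 1. For the 28 probes on both siControl arrays only, in 27 loci, the median bound was at least 1.83-fold. The highest was at least 4.29-fold, at chr5:37051650-37110575 (forward), where siControl read 6.57 and 7.18 and siFxr1 5.08 and 2.88. Neither passed in the fit with condition only (limma adjusted p = 0.950 and 0.975).

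Of the 5 loci with the lowest unadjusted p in that fit, 4 were named through probes that were not detected on all arrays. At chr4:63736566-63744848 (reverse) probe A_30_P01025901 read 5.75 and 6.22 in siFxr1 and 2.80 and 2.82 in siControl, with an unadjusted p = 0.000575 in that limma fit across all probes (adjusted p = 0.950). It was detected on the siFxr1 arrays only, with a difference of 1.89 in experiment 1 and 3.40 in experiment 2 at a probe of Tnc, the gene of the matrix protein tenascin C 61555 bases away on the same strand, which was detected on 2 arrays. At chr19:46413742-46418617 (forward) probes A_30_P01027453 and A_30_P01030914 read 5.29 and 4.61 in siFxr1 of experiment 1, 5.14 and 4.85 in siFxr1 of experiment 2, and at most 2.87 in siControl. Each was detected on 1 array. At chr1:182685730-182689074 (forward) probe A_30_P01025393 read 2.72 and 2.66 in siFxr1 and 4.89 and 4.71 in siControl and was not well above background on any array. The chromosome 2 locus was also among these 5. The last, on chromosome 18, was named through a probe detected on 3 arrays, with an unadjusted p = 0.00128 in the limma fit with condition only. The probe of that locus that was detected on all arrays read 6.60 and 5.91 in siFxr1 and 7.79 and 7.40 in siControl (limma with experiment as a block, adjusted p = 0.0399).

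The second comparison set experiment 1 against experiment 2 within each condition. The median absolute log2 difference of detected lincRNA probes was 0.583 in siControl and 0.657 in siFxr1, against 0.326 and 0.345 between the conditions in experiments 1 and 2. Over all detected probes these medians were 0.491 and 0.438 between the experiments and 0.297 and 0.347 between the conditions. The limma fit with condition as a block called 0 lincRNA probes of 16194 over all probes (background 0%, lowest adjusted p = 0.108). At an unadjusted p under 0.05 it had 3532 lincRNA probes among 11172 of all. Restricted to probes detected on all 4 arrays, the same fit called 1140 lincRNA probes in 676 loci. They are 33.9% of the detected lincRNA probes, against a background of 22.5%. In experiment 1, 675 probes in 422 loci were higher (20.1%, background 11.8%, median log2 difference 1.22) and 465 in 267 loci were lower (13.8%, background 10.6%, median -1.38). The split between higher and lower differed between settings. In fits over all probes 594 lincRNA probes were higher and 1739 lower in experiment 1 with scaling to the 75th percentile. With a trended prior on the quantile-scaled values they were 576 and 857. Of all probes called, 1926 of 5846 were higher with 75th percentile scaling and 2489 of 5590 with the trended prior.

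By size, 325 lincRNA probes in 213 loci (9.67%, background 4.88%) were at least 2-fold higher in experiment 1 in both conditions, and 290 in 169 loci (8.63%, background 5.08%) at least 2-fold lower. Among the other probes the shares were 4.07% and 4.49%. The median difference of detected lincRNA probes was 0.0578 in siControl and 0.289 in siFxr1, against 0.0463 and 0.0885 over all detected probes. The differences in the 2 conditions correlated at 0.814 across detected lincRNA probes and at 0.725 across the others, as a description. In the 420 loci with 3 or more detected probes, every probe had the same sign in 66.9%, and the median SD within a locus was 0.287 against an SD of 0.972 of the locus medians.

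**Figure D4:**
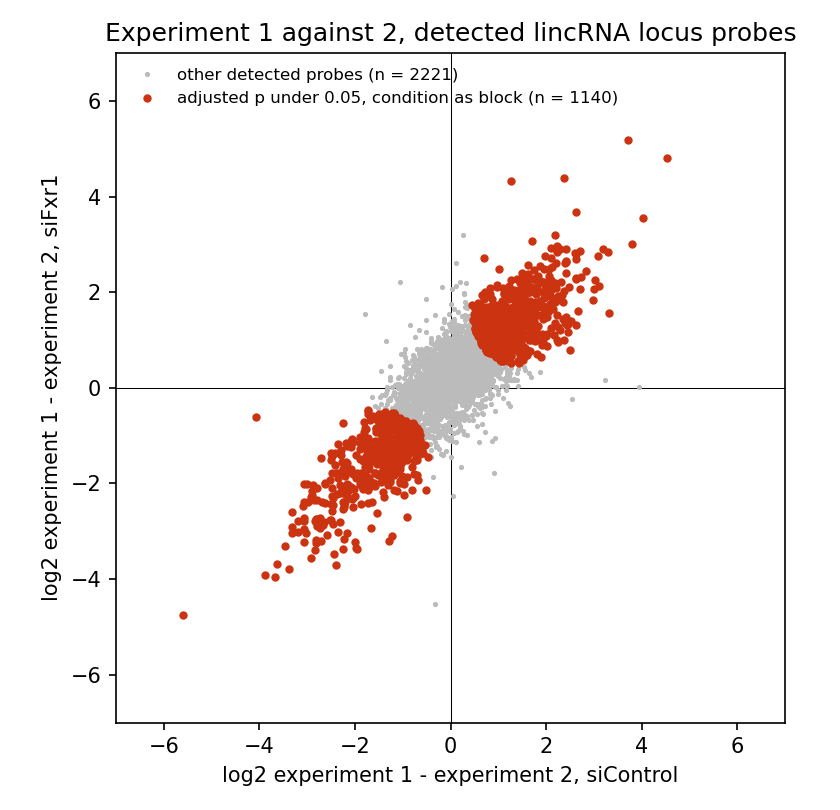
Each point is a lincRNA probe detected on all 4 arrays, with its log2 difference between experiment 1 and experiment 2 in siControl on the x axis and in siFxr1 on the y axis. Red points mark the 1140 probes with an adjusted p under 0.05 in the limma fit with condition as a block over detected probes and grey points the others; the points stretch along the diagonal.

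The locus with the largest difference towards experiment 1 was chr13:22110479-22116629 (reverse), in a histone gene cluster. Its probe A_30_P01022120 read 10.04 (siFxr1) and 9.37 (siControl) in experiment 1, against 5.23 and 4.84 in experiment 2. The arrays of an experiment lay close together and far from those of the other. The log2 difference was 4.67 (SE 0.235, limma over detected probes with condition as a block, adjusted p = 0.000645). The other 4 probes of the locus were detected on no array, and the nearest detected gene, the histone gene Hist1h2ah 10406 bases away, differed by 0.354 in siControl and 0.334 in siFxr1. A probe of Hist1h4i, another histone gene of the cluster 16050 bases away on the same strand, was higher in experiment 1 by 1.23 in siControl and 1.52 in siFxr1. A second Hist1h4i probe, 16510 bases away, differed by 0.673 and 0.692. ENSMUST00000102977, 15962 bases away on the same strand, differed by 1.03 and 0.296.

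Other loci higher in experiment 1 had called probes beside others that were not, or called probes only. At chr16:39984031-40081556 (reverse) probe A_30_P01026605 read 13.66 and 12.27 in experiment 1 and 8.48 and 8.56 in experiment 2, while the 2 other detected probes differed by -0.191 and 0.350. At chr5:22801058-22939737 (forward) probe A_30_P01032670 read 12.27 and 11.54 against 9.25 and 7.75, and the 2 other detected probes were not called. At chr3:87757295-87774970 (reverse), 29 bases from Crabp2 on the other strand, probe A_30_P01031372 read 8.33 and 8.65 against 5.43 and 5.46, and both detected probes of the locus were called. Crabp2, which encodes a retinoic acid binding protein, differed by 0.877 in siControl and 0.343 in siFxr1.

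The locus chr11:3538125-3554450 (forward) runs opposite to Tug1, a well-known lincRNA, and 5 of its 7 detected probes were called. Probe A_30_P01021787 read 8.88 (siFxr1) and 8.99 (siControl) in experiment 1, against 5.32 and 4.96 in experiment 2. Its log2 difference was 3.79 (SE 0.245, limma over detected probes with condition as a block, adjusted p = 0.000645). The detected probes that were not called, A_30_P01030992 and A_30_P01031624, differed by -0.229 and 0.552. The 5 TUG1 probes on the other strand differed by -0.713 to 0.158 and none was called. A further 3 probes, named Tug1 and also detected on all 4 arrays, differed by -0.621 to 0.88, and none was called. All 5 TUG1 probes were detected on all 4 arrays, and the difference between the strands was not tested.

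Towards experiment 2 the largest difference was at chrX:11693432-11693908 (reverse). Its probe A_30_P01023452 read 7.85 (siFxr1) and 7.76 (siControl) in experiment 1, against 12.60 and 13.37 in experiment 2. The log2 difference was -5.18 (SE 0.276, limma over detected probes with condition as a block, adjusted p = 0.000645). The other 2 probes were detected on no array, with signals of at most 3.72. At chr13:28947034-28949166 (reverse), 91660 bases from the transcription factor gene Sox4, both detected probes read between 5.88 and 6.57 in experiment 1 and between 9.82 and 10.02 in experiment 2. At chr17:3346621-3347209 (forward) they read 5.71 to 6.73 against 9.39 to 9.48, and at chr1:139822286-139822985 (forward) 6.003 to 6.49 against 9.33 to 10.05. At chr2:67411703-67412293 (forward), 47683 bases from the muscle gene Xirp2, the detected probe read 5.75 and 6.16 against 9.65 and 10.04, and Xirp2 was detected on no array.

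**Figure D5:**
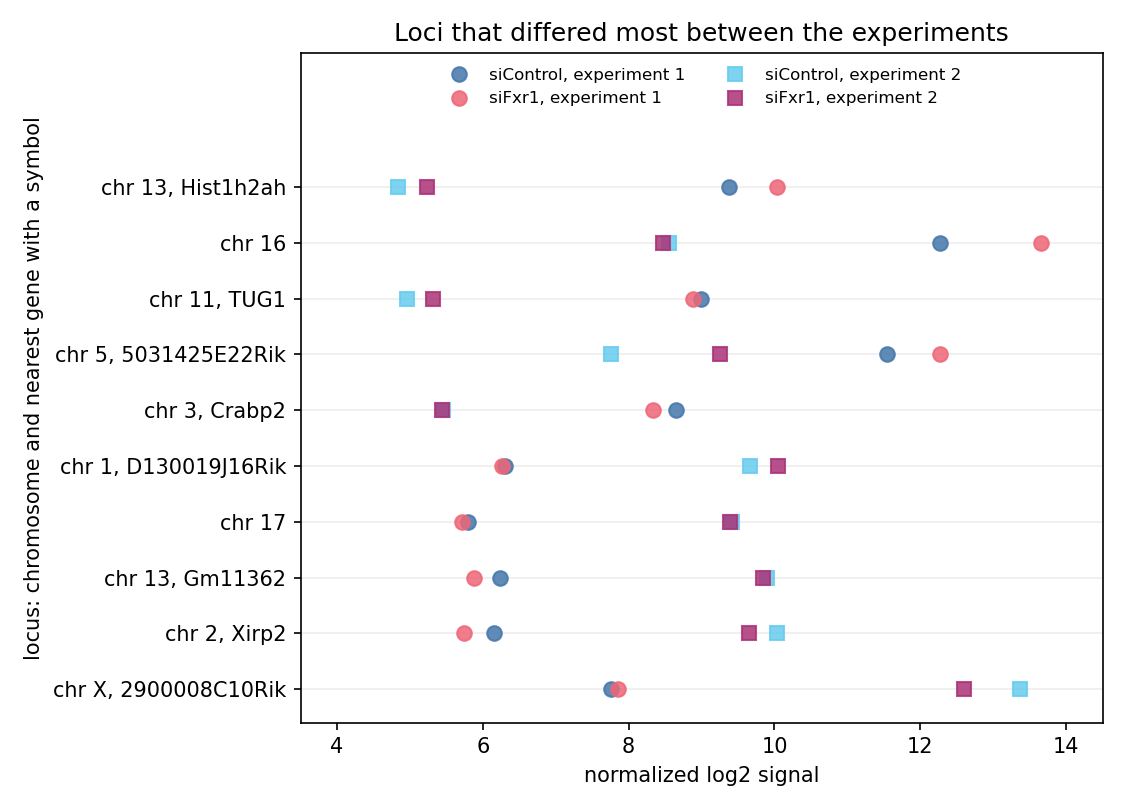
The normalized log2 signal (x axis) is shown for the 5 loci highest in experiment 1 (upper) and the 5 highest in experiment 2 (lower), each named by chromosome and nearest gene with a symbol on the y axis where there is one within 100 kb; each point is 1 array, circles for experiment 1 and squares for experiment 2. The loci were chosen by this difference, and the probe shown is the detected one with the largest difference at its locus. Circles and squares therefore do not overlap at the probes shown. Other detected probes of these loci can overlap, such as A_30_P01020433 on chromosome 16. It read 7.34 and 6.78 (siFxr1 and siControl) in experiment 1 and 7.26 and 7.25 in experiment 2.

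Markers of differentiated myotubes were higher in experiment 1. All of the 9 were on the array and 8 were detected, with Myh2 on no array. Their summed signal was 17.76 and 17.92 in experiment 1 (siFxr1 and siControl, log2 of the sum) and 15.74 and 15.99 in experiment 2, and the median difference was 2.05. Titin (Ttn) was the exception among the detected ones, at -0.257. Myogenin (Myog), a transcription factor of differentiation, read 15.51 and 15.64 in experiment 1 and 13.42 and 13.50 in experiment 2. Of 7 myoblast markers 5 were detected, with Myf5 and Msc on no array, and their sum was between 16.73 and 17.07 on all arrays. Of adipocyte markers 0 of 4 were detected, of haematopoietic ones 1 of 4 (Cd3e, between 9.40 and 10.60) and of endothelial ones 2 of 4 (Kdr and Cdh5). The summed haematopoietic signal was 10.57 to 10.63 in experiment 1 and 9.49 to 9.62 in experiment 2, and the endothelial one 11.63 to 12.11 over all arrays. The part of these markers in the lincRNA differences was not tested. Between the conditions the median difference of the myotube markers was -0.181.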

How the data were processed

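RNA of 4 samples was hybridised to one-colour Agilent mouse arrays, and the authors deposited the scanner output as intensity values per spot (Agilent Feature Extraction 10.7.3.1; probe positions in mm9) and a table of normalized intensity, which was used as an alternative. That table was quantile-normalized without background subtraction. Here log2 of the background-corrected intensity was quantile-normalized over 59305 non-control spots. Spots marked as outliers (2 to 7 lincRNA spots per array) were dropped afterwards, and spots were averaged per probe. No lincRNA spot was saturated.

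Differences were tested with limma 3.58.1 (R 4.3.3), two-sided, with Benjamini-Hochberg adjustment over all probes fitted at a threshold of 0.05. The main fit for condition had no further term, and that for experiment had condition as a block. Experiment numbers in the labels pair the samples, and the series calls the experiments independent. Deviations of same-numbered arrays from their group means correlated at 0.814 over detected lincRNA probes and 0.725 over the others. With this number of arrays these are the correlations of the experiment differences given above, and not a separate check. The number of arrays limits the precision.

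Loci were named by fixed rules: the 5 brightest, the 5 highest and 5 lowest in each comparison by the smaller of the paired differences, the 5 with the lowest p, those within 100 kb of study or Hox genes, and the largest bounds. Not every locus that met these rules, and not every called locus, is described above. The loci, lists and rules were chosen with earlier results of these data known. The scripts were tested on simulated data. Alternatives covered scaling, background correction, the deposited table, detection filters, the variance prior, blocks and leaving out arrays. The sequence and coordinates of a locus on chromosome 18, and the values of 1 further called locus, are not reported here.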

Additional observations from a re-analysis of the deposited data

Results flagged for a closer look

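At 4 lincRNA loci a detected probe differed at least 2-fold between siFxr1 and siControl in both experiments but in opposite directions, and the difference between the experiments was not tested. At chr1:175653557-175671940 (reverse) the log2 difference was -1.66 in experiment 1, with signals of 7.56 and 9.22 in siFxr1 and siControl, and 1.04 in experiment 2, with 9.34 and 8.31. At chrX:50400250-50410825 (forward) it was 1.02 in experiment 1 (8.94 and 7.92) and -1.3 in experiment 2 (7.97 and 9.27). At chr7:117140887-117152562 (reverse) it was 1.16 (6.94 and 5.78) and -2.1 (4.73 and 6.83). At chr11:50994911-51050704 (reverse) it was 1.63 (7.70 and 6.07) and -1.32 (4.50 and 5.82). The 4 probes are out of 3361 detected lincRNA probes with a value on all arrays. Among the 20124 other detected probes 12 did so, and over all 23485 detected probes 16.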

How the results depend on the processing

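The count of detected lincRNA probes was 3363 on all 4 arrays, 6097 with the mark for a positive and significant signal, and 6604 when 1 array sufficed. For siFxr1 against siControl 0 lincRNA probes were called under the other scaling, background correction, deposited table, detection filter, variance prior and B above 0 and with each array left out. The replicate block, which pairs the arrays by experiment, also gave 0 on all probes and 44 on detected probes. Taking the 4 ratios as observations, which share arrays, gave 215 of 16194 at B above 0, and 1107 of 55681 over all probes. Settings chosen after the data were seen changed the blocked count over detected probes. It was 16 of 3363 with normexp and 76 of 3363 with the deposited table (32 shared with the 44). With probes detected in at least 1 condition it was 33 of 4080 (7 shared). Over all probes fitted, these settings called 263 and 950 of 23500 and 280 of 25540. The last of them can admit a probe through its brighter condition alone. All 10 chromosome 17 probes were called in the first and second settings and 4 in the third, and of the chromosome 2 probes 0, 2 and 1. For experiment 1 against 2 the fits called 5846 of all probes with 75th percentile scaling, 4496 with normexp and 5450 with the deposited table. Over detected probes 5278 were called, with a trended prior 5590 and at B above 0 664. Among lincRNA probes the main count of 0 became 2333 with that scaling and 1082 with normexp (428 higher, 654 lower). It became 1193 with the deposited table (509, 684) and 1140 over detected probes. With a trended prior it was 1433 (576, 857), and at B above 0 it was 312 (59, 253). It was 0 without the block and with any array left out, the latter with experiment as the only term because the block leaves no residual degree of freedom. That scaling moved the median of all detected probes from 0.0658 to 0.179.

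Probes at least 2-fold higher and lower in siFxr1 in both experiments, 20 and 36, were 9 and 14 with normexp, 8 and 12 with the deposited table, 54 and 79 with detection in at least 1 condition, and 121 and 173 with no filter. Between the experiments 325 and 290 became 144 and 181 with normexp, 127 and 164 with the deposited table, and 786 and 1226 with no filter. The cause of these changes was not tested. No share over all probes is given beside these alternative counts, so they do not show how lincRNA probes compared with the rest. The median difference stayed between -0.168 and 0.127 for condition and between 0.106 and 0.241 for experiment with each array left out. Of 455 alternative values at 40 named loci 371 kept direction and call, 58 newly passed and 26 changed sign. With normexp and the deposited table, blocked or not, the sign changed at chr11:22681800-22707775 (-0.0966, -0.099) and chr17:48068261-48087905 (-0.119, -0.111). With an array left out the difference ranged from -0.983 to 1.07 at chr14:65431652-65437902, -0.687 to 1.61 at chr15:102947390-102971082, -0.274 to 0.286 at chr17:17481706-17482457, -0.313 to 0.503 at chr17:29183003-29217681, -0.542 to 0.0446 at chr17:29192453-29216073, -0.159 to 0.161 at chr17:48068261-48087905, -0.146 to 0.455 at chr19:46413742-46418617, -0.187 to 0.652 at chr1:182685730-182689074, -0.197 to 1.52 at chr3:34003359-34537330 and -0.497 to 1.55 at chr6:52046805-52072744. Dim probes near background limit the folds that can be read.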
